A study of Mus musculus with 6 samples.

Results

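Nuclear oxidative phosphorylation (OXPHOS) genes were the protein-coding genes outside the mitochondrial chromosome whose deposited symbol began with Nduf, Uqcr, Atp5 or Cox followed by a digit, together with Sdha, Sdhb, Sdhc, Sdhd, Cyc1 and Cycs. The rule uses symbols and no measured value, and it took 108 of the 56748 gene rows. Of these 108 genes, 37 encode subunits of complex I, 8 complex I assembly factors, 4 complex II, 10 complex III or cytochrome c, 20 subunits of complex IV, 9 complex IV assembly factors and 18 complex V, and 2 are gene copies (Cox5b-ps and Ndufb11b). Ndufa4, Ndufa4l2 and Cox7a2l were counted with the complex IV subunits. The genes lie on 19 chromosomes, 3 of them on the X chromosome (Cox7b, Ndufa1 and Ndufb11).

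Complexes I to IV form the respiratory chain of the inner mitochondrial membrane. They pass electrons from NADH and succinate to oxygen, with cytochrome c carrying them between complexes III and IV, and complex V uses the resulting proton gradient to make ATP. Most of their subunits are encoded in the nucleus and must be matched with a small core set encoded by mitochondrial DNA. Myeloid and bone cells are known to shift between this pathway and glycolysis when they meet inflammatory stimuli.

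Bulk RNA sequencing was performed on primary osteocyte cultures made from limb bones. The methods describe this isolation for C57BL/6 mice aged 7 weeks, and state no strain or age separately for the cKO mice. The 3 WT libraries and the 3 libraries labelled cKO all came from cells given 10 ng/mL lipopolysaccharide for 3 h and then 20 µg/mL aluminum hydroxide for another 3 h, a treatment meant to induce pyroptosis. The cKO mice were Gsdmd fl/fl; DMP1-Cre, in which the Dmp1 promoter drives Cre in osteocytes to delete Gsdmd, the gene of the pore-forming protein gasdermin D. There were no unstimulated libraries, so every value describes stimulated cells, and nothing says that replicates came from separate animals, so p-values measure only the spread between these libraries, which may be technical.

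Library totals lay between 39566835 and 49734046 counts. Gsdmd, the targeted gene, was not lower in the libraries labelled cKO: it stood at 13.5, 14.1 and 14.1 CPM (counts divided by the TMM-scaled library total and multiplied by 1e+06) in WT and at 21, 23.6 and 23 CPM in the others, so the genotype is written below as labelled. Of the defining osteocyte genes, Sost was at 0 in all 6 libraries, and neither Dmp1 (at most 0.151 CPM) nor Mepe (at most 0.0475 CPM) exceeded 1 CPM in any. The 8 osteocyte markers together summed to 553 to 590.4 CPM in WT and 514.4 to 540.3 CPM in cKO, nearly all of it Ackr3 (311.5 to 348.1 CPM over the 6 libraries) and Pdpn (188.7 to 240.3 CPM), while Irx5 stood at 4.17 to 6.64 CPM and Phex and Fgf23 were below 1 CPM. Of the 3 that were tested, Pdpn was lower in cKO and Ackr3 and Irx5 were not called. All 12 of 12 macrophage markers were higher in the libraries labelled cKO, with a summed level of 1122.5 to 1265.9 CPM in WT and 6086.1 to 6395.9 CPM in cKO, and the part of this in the OXPHOS values was not tested. Markers of pericytes and smooth muscle (3 of 4 lower, 1 higher) summed to 832.4 to 990.8 CPM in WT and 477.9 to 546.7 CPM in cKO. The summed chondrocyte markers were also lower (1407.4 to 1571.2 and 841.2 to 934.6 CPM), but this rests on Col2a1, since Acan and Sox9 were higher. The part of these lists was not tested either. In bulk libraries, a change in the share of a cell type and a change in RNA per cell cannot be told apart. The Y-linked gene Ddx3y stood at 103.8 to 109.9 CPM in WT and at 0 in the libraries labelled cKO, so sex and genotype cannot be told apart. WT replicate 3 stood apart from its sisters for genes with a short coding sequence, and 53 of the 102 tested OXPHOS genes have at most 450 coding bases. The counts of called OXPHOS genes are therefore given with and without WT replicate 3, and OXPHOS calls lost or gained without it are named. The other lists are given for all 6 libraries unless said otherwise.

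The nuclear OXPHOS genes made up 0.51%, 0.522% and 0.481% of all counts in WT and 0.509%, 0.51% and 0.51% in the libraries labelled cKO. Their share in cKO lay within the range of the WT libraries. Per kilobase of the deposited gene length, and averaged over the 6 libraries, the highest level belonged to Ndufa4l2, a hypoxia-induced relative of the complex IV subunit Ndufa4, at 278.8 CPM per kilobase. It was followed by Atp5b, the catalytic beta subunit of ATP synthase (139.4 CPM per kilobase), Cox6a1 (136.6 CPM per kilobase) and Cox8a (132 CPM per kilobase), both small complex IV subunits, and Atp5a1, the alpha subunit of ATP synthase (124.1 CPM per kilobase). On the length of 1 reference transcript per gene, Ndufa4l2 (315.7 CPM per kilobase) was again first and Atp5b (306.7 CPM per kilobase) second. Several members known for restricted use were at or near 0: Cox7b2, Cox8b, Cox8c and Ndufb11b had no counts in any library, and the muscle isoform Cox6a2 had at most 0.214 CPM. A second row named Atp5o, which overlaps the main row of that gene, also had no counts. These 6 were not tested, which leaves 102.

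In the quasi-likelihood fit of edgeR, with p adjusted by Benjamini-Hochberg over 17146 genes, 18 of the 102 tested OXPHOS genes were higher and 7 were lower in the libraries labelled cKO at an adjusted p below 0.05. That is 17.6% and 6.86%, beside 20.1% and 19.2% of all tested genes. The share called higher was close to the background and the share called lower was below it. The changes were small: the log2 fold changes ran from -0.41 to 0.59 with a median of 0.06 (0.01 over all tested genes), and their interquartile width was 0.26 against 0.49. A log2 fold change above 0.5 in size was reached by 2 of 102 genes (1.96%), beside 28.9% of all tested genes, and no called OXPHOS gene reached 1, which 6.56% of all genes did upward and 4.64% downward. All 3 cKO libraries lay above all 3 WT libraries for 20 OXPHOS genes and below them for 14, where 25.3% and 23.9% of all tested genes did so. Of the called genes, 16 of the 18 higher and 7 of the 7 lower had no overlap between the groups. This share was not computed over all called genes, and a call and a lack of overlap rest on the same values.

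The split between directions depended on scaling. Under upper quartile scaling, which moves the median log2 fold change of all genes to -0.061, 5 OXPHOS genes were called higher and 15 lower, beside 16.3% and 25% of all genes in that fit. Leaving out a library in turn gave 10, 29 and 9 higher genes without WT replicate 1, 2 and 3, and 10, 11 and 6 without cKO replicate 1, 2 and 3, with 5 to 7 lower genes throughout. In those 6 fits, 16.7% to 19.2% of all genes were called higher and 15.8% to 19% lower. Without WT replicate 3, 9 were higher and 7 lower, beside 19.2% and 19% of all genes; 9 of the 18 higher genes and 6 of the 7 lower genes were called in both fits.

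**Figure D1:**
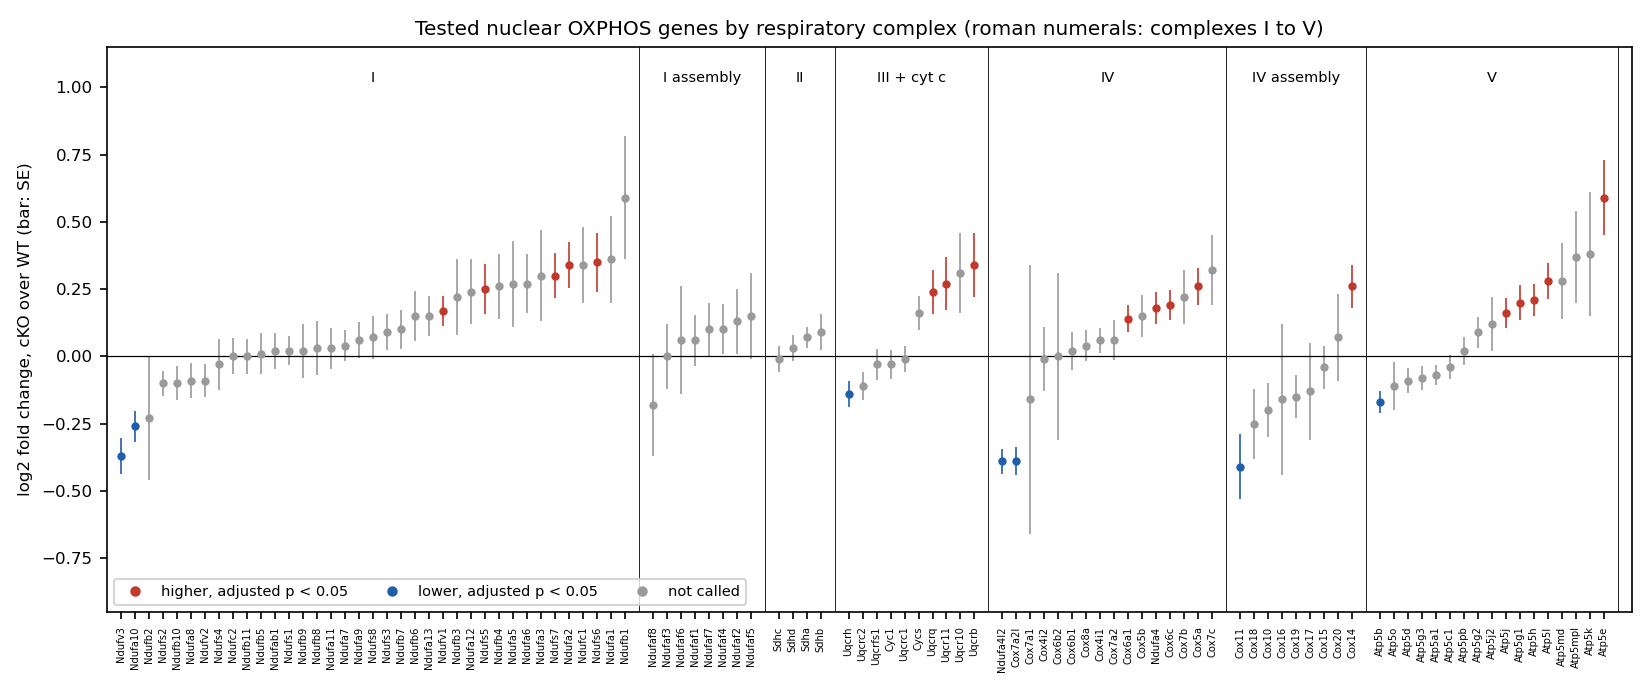
The log2 fold change of each tested OXPHOS gene (vertical axis, libraries labelled cKO over WT, bar: standard error) is plotted by respiratory complex. Red points are the 18 higher genes, blue points the 7 lower genes and grey points the genes not called, and all values lie between -0.41 and 0.59.

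Among the lower genes, Ndufa4l2 (chromosome 10, 127350836 to 127353023, GRCm39, plus strand) had the smallest p. It stood at 360.9, 357.5 and 321.5 CPM in the WT libraries and at 266.3, 270.2 and 255.3 CPM in those labelled cKO. Every cKO library was below every WT library, and the log2 fold change was -0.39 (SE 0.046, edgeR adjusted p = 2.08e-06). The gene overlaps Shmt2 on the opposite strand, and whether counting used strand is not given in the sources used here. Cox7a2l, which helps join complexes III and IV into supercomplexes, stood at 97.1, 99.6 and 92.3 CPM in WT and at 70.1, 78.2 and 71.9 CPM in cKO. The groups did not overlap, and the log2 fold change was -0.39 (SE 0.053, edgeR adjusted p = 9.71e-06).

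In complex I, 5 of 37 tested subunits were higher and 2 lower, with a median log2 fold change of 0.07. Ndufv3, a small accessory subunit of the NADH-oxidizing tip, stood at 57, 62.3 and 52.7 CPM in WT and at 44.2, 41.4 and 47.2 CPM in cKO, with a log2 fold change of -0.37 (SE 0.066, edgeR adjusted p = 0.000186). Ndufa10, an accessory subunit of the membrane arm, stood at 56.5, 53.4 and 61.3 CPM in WT and at 47.9, 47.6 and 47 CPM in cKO, with a log2 fold change of -0.26 (SE 0.057, edgeR adjusted p = 0.00127). In both, all cKO libraries lay below all WT libraries. The higher genes included Ndufa2, an accessory subunit near the NADH-oxidizing module and the complex I subunit with the highest level per kilobase, which stood at 27.8, 27.8 and 22 CPM in WT and at 31.2, 33.3 and 34.2 CPM in cKO. Its log2 fold change was 0.34 (SE 0.085, edgeR adjusted p = 0.0035). Ndufs7, a core subunit carrying an iron-sulfur cluster, stood at 22.2, 25.4 and 23.3 CPM in WT and at 31.5, 25.9 and 29.8 CPM in cKO, and its log2 fold change was 0.30 (SE 0.083, edgeR adjusted p = 0.00762). The groups did not overlap for either, although for Ndufs7 the nearest WT and cKO libraries, at 25.4 and 25.9 CPM, were close. The other 3 higher subunits were Ndufv1, which binds NADH (log2 fold change 0.17), Ndufs6 (0.35) and Ndufs5 (0.25). Without WT replicate 3, Ndufs6 (adjusted p = 0.0911) and Ndufs5 (adjusted p = 0.097) lost their edgeR calls and Ndufv1 did not. Ndufb1, a small membrane-arm subunit, had a log2 fold change of 0.59 with a standard error of 0.23 and missed the threshold (edgeR adjusted p = 0.0528), at 5.86, 7.51 and 2.83 CPM in WT and 7.65, 9 and 7.92 CPM in cKO.

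None of the 8 complex I assembly factors was called by edgeR's test. Ndufaf1, which acts on early membrane-arm intermediates and had the highest level per kilobase among them, stood at 11.8, 12.3 and 12.3 CPM in WT and 12.2, 13.4 and 12.5 CPM in cKO. Ndufaf5, which modifies Ndufs7, and Ndufaf8, its partner, had log2 fold changes of 0.15 (SE 0.16) and -0.18 (SE 0.19), the largest of the 8 in each direction. For all 3, the groups overlapped.

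Complex II, the succinate dehydrogenase that also works in the citric acid cycle, had no called gene among its 4 subunits. Sdha, the flavoprotein that oxidizes succinate, stood at 180.1, 178.8 and 175.5 CPM in WT and 183.7, 190.9 and 187.1 CPM in cKO. All cKO values were above all WT values, but the log2 fold change of 0.07 (SE 0.04) missed the threshold (edgeR adjusted p = 0.179). Sdhb, the iron-sulfur subunit, had a log2 fold change of 0.09 (SE 0.068), and the membrane anchors Sdhc and Sdhd had -0.01 (SE 0.047) and 0.03 (SE 0.048). The summed level of the 4 genes lay between 364.3 and 375.8 CPM in WT and between 380.2 and 390.2 CPM in cKO.

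In complex III with cytochrome c, 3 of 10 genes were higher and 1 lower. Uqcrh, the hinge protein beside cytochrome c1 and the gene with the highest level per kilobase of this group, stood at 66.2, 65.1 and 63.7 CPM in WT and at 59.7, 57.8 and 59.8 CPM in cKO. The groups did not overlap, and the log2 fold change was -0.14 (SE 0.048, edgeR adjusted p = 0.0321). The Uqcrh call was lost in 8 of 20 alternative settings, the most of any named OXPHOS gene. Uqcrb, a small subunit at the ubiquinone-binding side, stood at 16.9, 22.6 and 14.9 CPM in WT and at 23.9, 20.3 and 25 CPM in cKO. It was higher (log2 fold change 0.34, SE 0.12, edgeR adjusted p = 0.0344) although its groups overlapped. The small subunits Uqcrq (0.24) and Uqcr11 (0.27) were also higher on the log2 scale, and none of these 3 was called without WT replicate 3. Cycs, cytochrome c itself, stood at 33.2, 32.9 and 31.5 CPM in WT and 35.7, 38.3 and 35 CPM in cKO without overlap, yet missed the threshold (log2 fold change 0.16, SE 0.063, edgeR adjusted p = 0.0554). Cyc1, cytochrome c1, had a log2 fold change of -0.03 (SE 0.055).

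Of 16 tested genes counted as complex IV subunits, 4 were higher and 2 lower. The lower ones were Ndufa4l2, a relative of the subunit Ndufa4, and the supercomplex gene Cox7a2l, and no other gene of this group was called lower. Cox5a, a matrix-facing subunit, stood at 40.4, 43.1 and 35.2 CPM in WT and at 46, 46.6 and 50 CPM in cKO. The groups did not overlap, and the log2 fold change was 0.26 (SE 0.07, edgeR adjusted p = 0.00592). Cox6c, Ndufa4 and Cox6a1 were higher by 0.19, 0.18 and 0.14 on the log2 scale. Without WT replicate 3, Cox6c was still called by edgeR, while Ndufa4 (0.12, adjusted p = 0.0817) and Cox6a1 (0.08, adjusted p = 0.147) were not. Cox7c, a small membrane subunit, stood at 40.5, 48.5 and 27.1 CPM in WT and at 46.7, 46.8 and 51.9 CPM in cKO, where the groups overlapped and the test was missed (edgeR adjusted p = 0.0647). Of the 9 assembly factors, Cox11, which delivers copper to the enzyme, was at 11.2, 10.8 and 13.7 CPM in WT and 8.43, 10 and 8.43 CPM in cKO. Its log2 fold change was -0.41 (SE 0.12, edgeR adjusted p = 0.0122), and without WT replicate 3 its call was lost (-0.30, adjusted p = 0.0576). Cox14, which promotes assembly of the Cox1 core, stood at 31.5, 25.9 and 25.3 CPM in WT and at 34, 33 and 31.9 CPM in cKO, with a log2 fold change of 0.26 (SE 0.081, edgeR adjusted p = 0.0171). That call too was lost without WT replicate 3 (adjusted p = 0.0548).

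In complex V, 5 of 17 tested genes were higher and 1 lower. Atp5b stood at 604.4, 610 and 664.7 CPM in WT and at 552.8, 547.7 and 564.6 CPM in cKO. The groups did not overlap, and the log2 fold change was -0.17 (SE 0.04, edgeR adjusted p = 0.00212). Atp5e, the epsilon subunit of the rotor's central stalk, stood at 29.9, 31.1 and 17.3 CPM in WT and at 39, 40 and 39.6 CPM in cKO. WT replicate 3 was far below the other WT libraries, and the log2 fold change of 0.59 (SE 0.14, edgeR adjusted p = 0.00229) became 0.37 without it (adjusted p = 6.57e-05). Atp5l, subunit g of the membrane part, stood at 42.7, 49.1 and 40.9 CPM in WT and at 56.9, 52.2 and 52 CPM in cKO. Its groups did not overlap either, and its log2 fold change was 0.28 (SE 0.068, edgeR adjusted p = 0.00306). The remaining higher genes were Atp5h (0.21), Atp5g1 (0.20), which encodes the proton-carrying subunit c, and Atp5j (0.16). Of these, Atp5j was not called by edgeR without WT replicate 3 (0.11, adjusted p = 0.103). Atp5d was called lower only without that library (log2 fold change -0.12, edgeR adjusted p = 0.0474). With all 6 libraries it was not called (-0.09, edgeR adjusted p = 0.16).

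**Figure D2:**
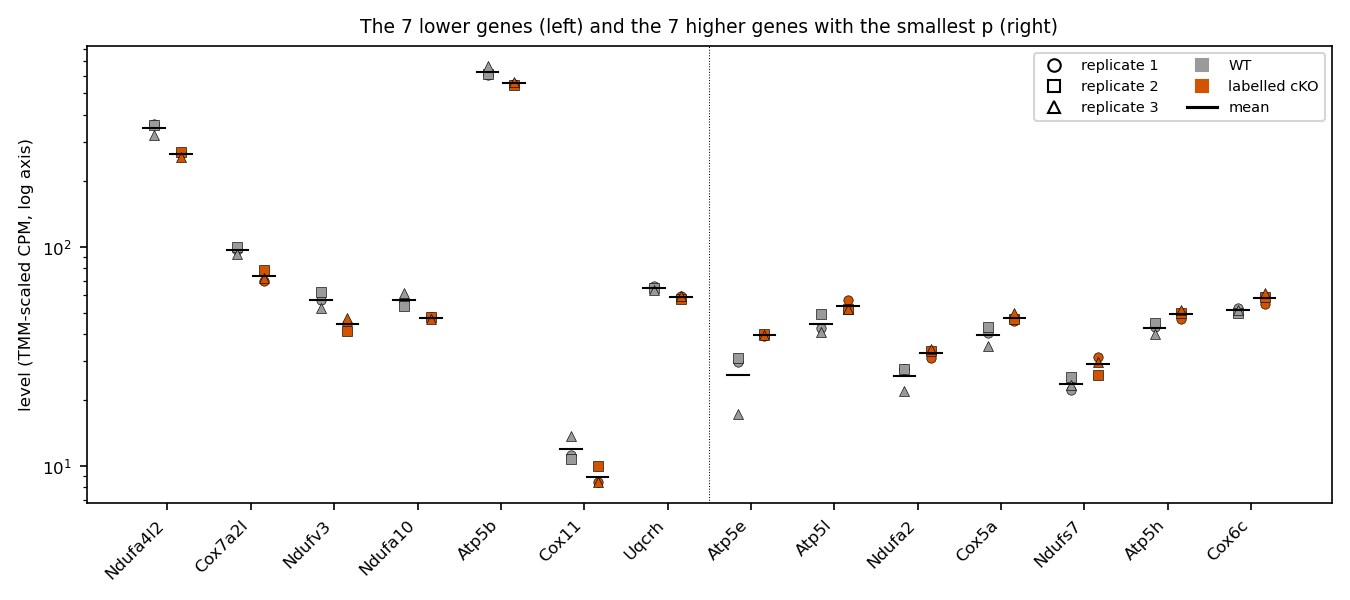
The level of each gene (vertical axis, TMM-scaled CPM on a log axis) is plotted per library, with WT in grey, libraries labelled cKO in orange, a symbol per replicate and a black line at the group mean. The 7 lower genes are on the left and the 7 higher genes with the smallest p on the right, and for Atp5e the WT replicate 3 value of 17.3 CPM lies apart from the other WT values of 29.9 and 31.1 CPM.

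Several members have a paralog that can take the same place in its complex. The share of the second gene in the pair was computed from counts per kilobase of the deposited gene length. The size of a share depends on that length. On deposited and reference transcript length, Ndufa4 stood at 37.4 and 97.6 CPM per kilobase, and Ndufa4l2 at 278.8 and 315.7. Cox4i1 stood at 86.3 and 170.8, and Cox4i2 at 14.9 and 15.5. Shares on transcript length, which would be smaller for Ndufa4l2 and Cox4i2, were not computed. Ndufa4l2 made up 90.1%, 89.8% and 90.1% of the Ndufa4 pair in WT and 86.1%, 86.1% and 85.3% in the libraries labelled cKO. The shares did not overlap and differed by -4.21 percentage points (exact permutation test, two-sided, p = 0.1, the smallest that 3 against 3 libraries allow, so this test cannot pass 0.05). Ndufa4l2 was lower with and without WT replicate 3, while Ndufa4 was called higher in the fit of all 6 libraries but not without that library. The share of Cox4i2, the hypoxia-linked form of subunit 4, was 15% ± 1.64 in WT and 14.5% ± 1.05 in cKO (SD, n = 3, exact permutation p = 0.8). The muscle and testis forms were rare: Cox7a1 took 2.05% ± 1.05 and 1.85% ± 0.345 of its pair and Cox6b2 1.49% ± 0.398 and 1.5% ± 0.212 (SD, n = 3, exact permutation p = 0.9 and 1). For these 3 pairs the groups overlapped. The 3 brown fat markers, among them Ucp1, were at 0 in all libraries, and the 7 skeletal muscle markers summed to between 2.11 and 7.13 CPM.

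**Figure D3:**
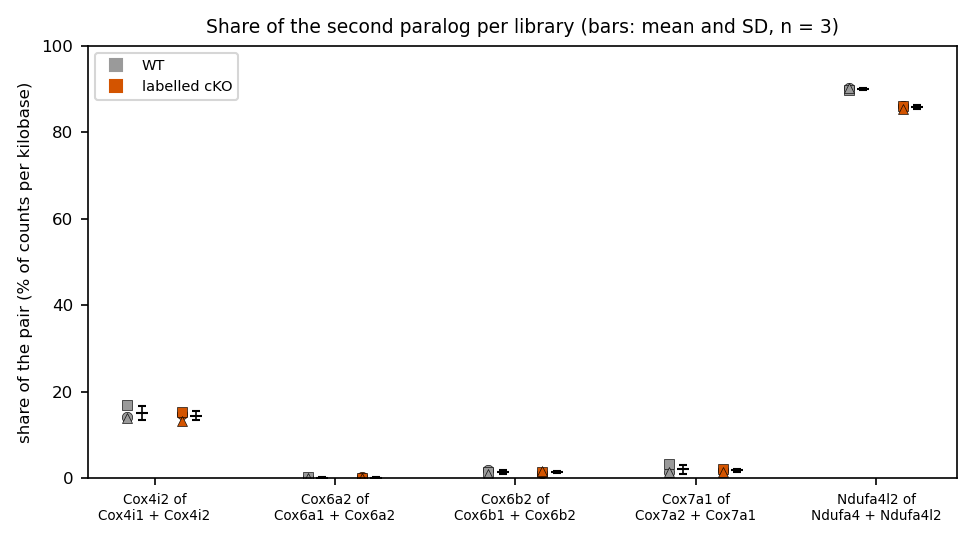
The share of the second paralog in the summed counts per kilobase of deposited gene length of the pair (vertical axis, percent) is plotted for each library. WT is in grey and libraries labelled cKO in orange, with bars for the mean and SD (n = 3). The mean for Ndufa4l2 was 90% in WT and 85.8% in cKO without overlap, while the other pairs overlap.

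Coding length separated the libraries. Among the 23 tested OXPHOS genes with a coding sequence of at most 300 bases, the median log2 level of WT replicate 3 relative to the mean of the other WT libraries was -0.68, and among the 30 with 301 to 450 bases it was -0.16. For all tested protein-coding genes of the same lengths, the values were -0.16 and -0.09. Across the 102 OXPHOS genes, Spearman's rho between this deviation and coding length was 0.68 in WT replicate 3, -0.41 and -0.57 in WT replicates 1 and 2, and between -0.06 and 0.09 in the libraries labelled cKO (a description across genes of the same library, which are not independent). Each deviation is taken against the other 2 libraries of its group, so the WT values of rho are tied and are not 3 separate observations. Of 102 OXPHOS genes, 49 were lowest of all 6 libraries in WT replicate 3 and 16 were highest in it. Among the 18 higher genes, 14 were lowest in it, where a higher call itself favours a lowest value in a WT library. These shares were not computed over all tested genes. Of those 18, 15 have a coding sequence of at most 450 bases, as do 53 of the 102 tested. The median log2 fold change of the 23 shortest genes was 0.27, and 0.10 without WT replicate 3. With an offset for coding length, chosen after seeing the data, 17 OXPHOS genes were higher and 7 lower, beside 20.2% and 19.4% of all genes. This offset was fitted over all tested genes with a coding length. It follows their smaller shift and cannot remove the rest of the shift in the OXPHOS genes, so these counts do not show calls free of it.

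**Figure D4:**
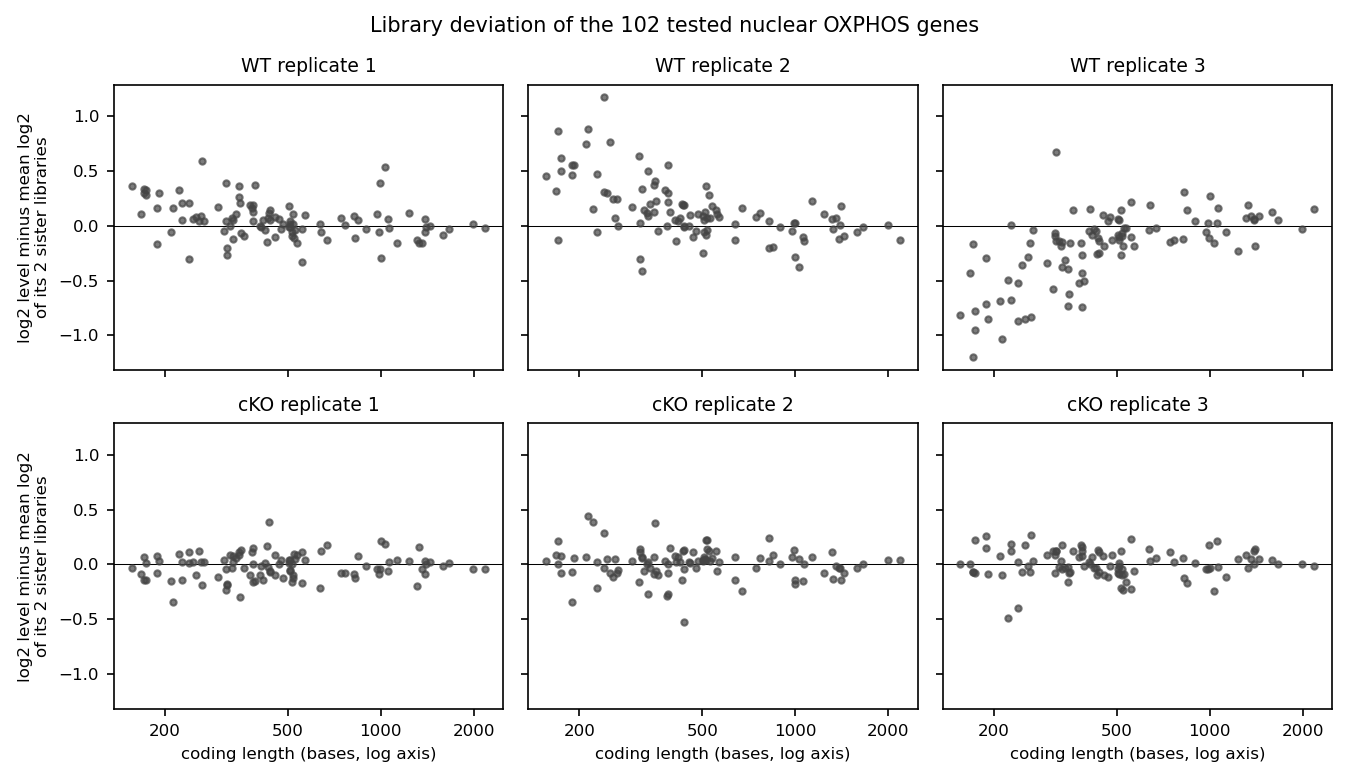
Each panel shows 1 library, with coding length (bases, log axis) against the log2 level minus the mean log2 level of the other 2 libraries of its group for the 102 tested OXPHOS genes (points). In WT replicate 3 the shortest genes lie low, with a median of -0.68 for those of at most 300 bases, and the libraries labelled cKO show no such slope.

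Nuclear OXPHOS genes are known to be controlled by NRF1, by the ETS-family factor GABP and by YY1, and short promoter stretches were searched for the letters GCGCATG (NRF1), CCGGAAG (ETS) and AAGATGG (YY1) on both strands. None of these words contains another. RefSeq promoters on GRCm38.p6, from 250 bases before to 50 bases after the start, were found for 85 members. Of these, 16 held the NRF1 letters (18.8%, against 4.41% of all 27025 promoters), 24 the ETS letters (28.2% against 9.93%) and 14 the YY1 letters (16.5% against 7.28%), and 43 held any (50.6% against 19.5%). Any of the 3 stood in 9 of 14 matched higher genes, 1 of 6 lower genes and 33 of 63 genes not called. These are matches of letters only, and this comparison of small counts was not tested.

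The 250 bases before the start are shown for 2 lower genes without a match and 2 higher genes with matches, 5′ to 3′ on the strand of the gene and with matches in capitals. They are Cox7a2l (chr17:83514334-83514583, minus strand), Ndufv3 (chr17:31519865-31520114, plus strand), Atp5e (chr2:174464102-174464351, minus strand) and Atp5l (chr9:44920743-44920992, minus strand), all on GRCm38.p6 and not on the build of the counts.
Cox7a2l: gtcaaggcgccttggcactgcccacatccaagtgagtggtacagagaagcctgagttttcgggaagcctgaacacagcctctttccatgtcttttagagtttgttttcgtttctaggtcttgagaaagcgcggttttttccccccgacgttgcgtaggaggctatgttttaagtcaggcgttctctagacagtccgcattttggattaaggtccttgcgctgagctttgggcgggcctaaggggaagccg
Ndufv3: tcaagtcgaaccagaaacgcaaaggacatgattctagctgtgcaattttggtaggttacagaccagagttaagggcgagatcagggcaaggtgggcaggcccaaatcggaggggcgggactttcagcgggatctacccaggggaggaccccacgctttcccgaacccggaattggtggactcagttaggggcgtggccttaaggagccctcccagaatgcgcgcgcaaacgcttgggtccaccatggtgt
Atp5e: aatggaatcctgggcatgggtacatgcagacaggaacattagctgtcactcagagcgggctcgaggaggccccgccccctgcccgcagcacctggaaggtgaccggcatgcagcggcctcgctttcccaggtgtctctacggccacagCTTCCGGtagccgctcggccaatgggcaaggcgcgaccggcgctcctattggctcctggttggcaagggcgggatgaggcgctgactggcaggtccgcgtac
Atp5l: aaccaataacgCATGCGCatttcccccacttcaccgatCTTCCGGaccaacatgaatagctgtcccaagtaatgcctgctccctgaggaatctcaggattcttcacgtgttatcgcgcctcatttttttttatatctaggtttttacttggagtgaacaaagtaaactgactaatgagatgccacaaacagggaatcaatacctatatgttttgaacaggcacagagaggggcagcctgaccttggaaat
Atp5e held the ETS letters on the opposite strand, and Atp5l held the NRF1 and the ETS letters, both on the opposite strand.

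The mitochondrially encoded partner subunits made up 1.84%, 2.03% and 1.77% of counts in WT and 1.83%, 1.84% and 1.83% in the libraries labelled cKO. Of 12 tested among 13, 1 was higher and 7 lower without WT replicate 3, beside 19.2% and 19% of all genes. In the fit of all 6 libraries, 1 was higher and 5 lower, beside 20.1% and 19.2% of all tested genes. Called lower only without WT replicate 3 were mt-Nd4l (log2 fold change -0.86, edgeR adjusted p = 0.00486) and mt-Cytb (-0.11, edgeR adjusted p = 0.0321). The values that follow are from all 6 libraries. The complex I subunit mt-Nd2 was higher (1014.5, 1106 and 938.6 CPM in WT, 1271.1, 1324.7 and 1274.2 CPM in cKO, log2 fold change 0.34, edgeR adjusted p = 1.25e-05). By contrast mt-Nd5 (log2 fold change -0.23) and mt-Co1, the catalytic subunit of complex IV (-0.09), were lower. The other lower genes in this fit were mt-Co2 (-0.55), mt-Co3 (-0.54) and mt-Atp6 (-0.54). All 3 stood at no more than 47.4 CPM in every library while mt-Co1 stood at no less than 7834.7 CPM, and 7 nuclear rows on chromosome 1 that copy this stretch of mitochondrial DNA (24650616 to 24655278) held 8960, 10598 and 2867 counts in WT and 4329, 4416 and 4099 in cKO, so their reads may be split and their values are uncertain.

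Of 19 tested regulators of mitochondrial biogenesis, 2 were higher and 2 lower (10.5% each), beside 20.1% and 19.2% of all tested genes. The coactivator gene Ppargc1b was higher by 1.43 on the log2 scale at 0.412 to 1.69 CPM (edgeR adjusted p = 0.00511), as was Mterf3 (0.28), while Nrf1 (-0.24) and Twnk, the mitochondrial DNA helicase (-0.32), were lower. Ppargc1a, a master coactivator of the pathway, stood at 2.46, 2.54 and 3.6 CPM in WT and 1.66, 2.11 and 1.91 CPM in cKO and missed the threshold (edgeR adjusted p = 0.0568). Of 34 other OXPHOS assembly factors, 0 were higher and 4 (11.8%) lower, among them Tmem70 (-0.38) and Atpaf2 (-0.29), both needed to build complex V. The mitochondrial ribosome had 3 higher and 4 lower genes of 77 (3.9% and 5.19%). Mitochondrial import had 0 higher and 8 lower of 23 (34.8%), such as the chaperone Hspa9 (-0.38) and the translocase subunit Timm17a (-0.33). Among 14 tricarboxylic acid cycle genes, 1 was higher (7.14%) and 3 were lower (21.4%). The higher gene was Idh2 (0.65), and the lower ones included Mdh2 (-0.24) and the citrate synthase gene Cs (-0.16). For lower genes, mitochondrial import was above the share of all tested genes, the tricarboxylic acid cycle close to it and the other lists of this paragraph below it. None reached that share for higher genes.

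The lists outside the mitochondrion had larger shares of lower genes. Of 18 glycolysis genes, 15 were lower and 2 higher, and their median was -0.38 on the log2 scale. The glucose transporter Slc2a1 stood at 464.9, 464.8 and 499.9 CPM in WT and 272.5, 268.5 and 267 CPM in cKO (log2 fold change -0.82, SE 0.04, edgeR adjusted p = 1.52e-11). The higher ones were Pfkfb3 (0.29) and Aldoc (0.24). Gapdh had a log2 fold change of -1.33, a gene with many near-identical copies, so its value is uncertain. Of 12 hypoxia targets, 11 were lower and 0 higher (median -0.46), with Ero1a at 865.8, 891.4 and 868.4 CPM in WT and 272.2, 266.1 and 273.1 CPM in cKO (-1.69, SE 0.036, edgeR adjusted p = 2.55e-16) and P4ha2 at -0.75. Of 78 cytosolic ribosomal genes, 43 were lower and 1 higher, with a median of -0.15. Without WT replicate 3, 62 were lower and 1 higher, with a median of -0.22. The OXPHOS genes, with 6.86% lower and a median of 0.06, held a smaller share of lower genes than each of these 3 lists (83.3%, 91.7% and 55.1%). All tested genes had 19.2%. This was not particular to the nuclear OXPHOS genes. The other mitochondrial lists were also below these 3, from 5.19% lower in the mitochondrial ribosome (median 0.01) to 41.7% in the mitochondrially encoded genes. These differences were not tested.

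**Figure D5:**
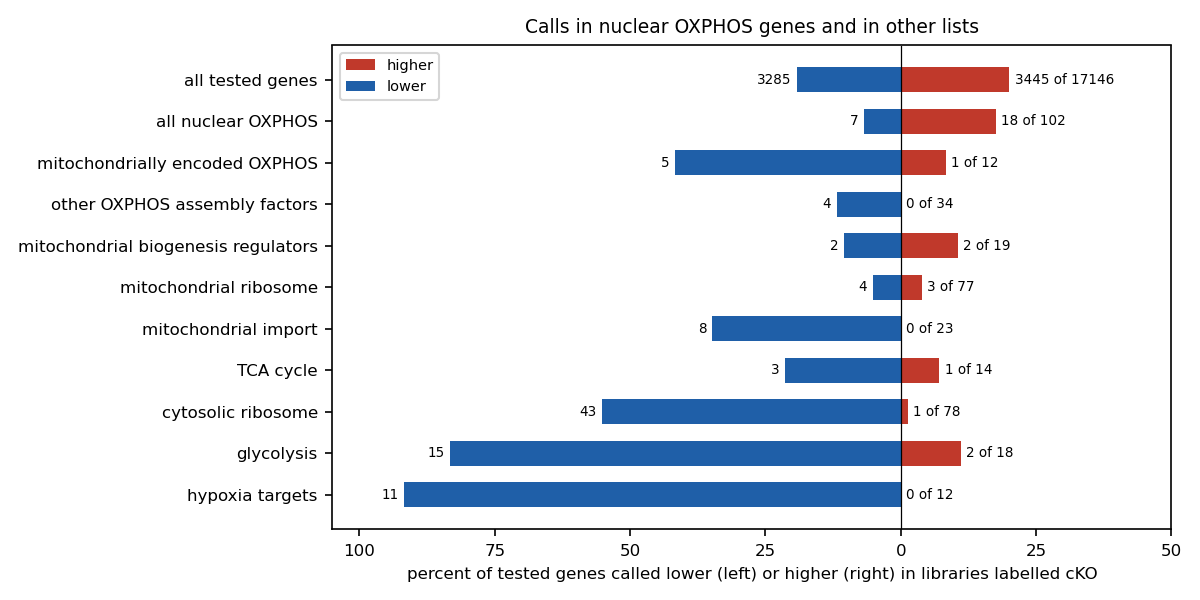
The percent of tested genes called lower (blue, left) or higher (red, right) in the libraries labelled cKO is plotted for the OXPHOS genes, all tested genes and the other lists, with counts at the bar ends. Nuclear OXPHOS genes had 18 higher and 7 lower of 102, while 11 of 12 hypoxia targets and 15 of 18 glycolysis genes were lower.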

How the data were processed

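RNA-seq counts of 6 libraries (3 WT, 3 labelled cKO) were analysed, with groups and replicate numbers from the titles. Per the labels and methods, the authors trimmed 150 bp paired-end reads from a directional library kit, aligned them to GRCm39 with HISAT2 (2.0.5 in the submitters' processing notes) and counted them per gene with featureCounts (1.55.0-p3 in those notes; the methods name another version). The deposited counts were not normalized, and a deposited gene length in bases stood beside them. The strand setting of the counting is not given in the sources used here. Of the OXPHOS genes, 39 overlap a gene on the opposite strand that has counts (10 of them called), so their counts may be shared if strand was not used, and 10 have a named pseudogene row.

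All 17146 genes kept by filterByExpr were fitted in edgeR 4.0.16 (R 4.3.3) with TMM scaling, glmQLFit and glmQLFTest, and Benjamini-Hochberg adjusted p below 0.05 was called. The common biological coefficient of variation was 8.36%. Coding lengths and reference transcript lengths came from GENCODE M39. Named genes were, in each complex, the gene with the highest level per kilobase and the largest change in each direction, the 5 called genes of each direction that had the smallest p, second paralogs, the complex II genes, Cyc1 and Cycs, and the 2 called genes with the largest change in each direction of each other list. Other genes in the text, among them the remaining called genes, Ppargc1a, mt-Nd5, mt-Co1 and mt-Co3, were chosen after their values were seen. Paralog shares used an exact permutation test over libraries. The members and lists were chosen with earlier results of these data known. Calculations were tested on simulated counts. Alternatives were DESeq2 1.42.0, limma 3.58.1 (voom), edgeR's exact test, other scalings and filters, length offsets, halved counts, a replicate block and leaving out each library.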

Additional observations from a re-analysis of the deposited data

How the results depend on the processing

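Beside 18 higher and 7 lower nuclear OXPHOS genes, upper quartile scaling gave 5 higher and 15 lower (16.3% and 25% of all genes tested in that fit), testing all genes with a count gave 29 higher (12.9% of 27649 genes), an adjusted p below 0.01 gave 6 higher (15.4%), and requiring a log2 fold change of at least 1 gave 0 and 0. Leaving out each library gave 6 to 29 higher and 5 to 7 lower. For the mitochondrially encoded genes (1 higher, 5 lower), DESeq2 gave 3 lower (19.8% of all genes), testing all genes with a count gave 2 higher, and leaving out each library gave 1 to 2 higher and 3 to 7 lower. For the other lists together, 9 were higher and 90 lower, beside 20.1% and 19.2% of all tested genes. The numbers tested are given per list above. Of the 90, 43 were in the cytosolic ribosome, 15 in glycolysis and 11 in the hypoxia targets. Testing all genes with a count gave 17 higher (12.9% of all genes), and leaving out each library gave 7 to 18 higher and 80 to 111 lower. In those leave-out fits, 16.7% to 19.2% of all genes were called higher and 15.8% to 19% lower. The Ndufa4l2 share differed by -4.99 percentage points without gene length, and by -4.36 to -3.92 when a library was left out. The cause of these shifts was not tested.

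Same-numbered libraries of the 2 genotypes did not deviate together over all genes (r of -0.0055, 0.00228 and -0.0103 over 17146 genes). These values cannot decide whether same-numbered cultures were handled together, because an effect on few genes would not show in them. With the replicate block, 24 nuclear OXPHOS genes were higher and 6 lower (19.2% and 18.1% of all genes), 1 and 5 mitochondrially encoded genes, and 12 and 88 genes of the other lists. Of the alternative values for the named OXPHOS genes, counts and shares, 77 moved by more than 1.5 times or the replicate spread. Another 26 lost and 18 gained their call, 1039 did none of these, and no named OXPHOS gene's called direction reversed. OXPHOS genes that were not named enter only through the counts. Groups of 3 limit the permutation tests.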
